A study of Mus musculus with 10 samples.

Results

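The genes of the insulin-like growth factor (IGF) axis described here were 10 of the 23230 features of the deposited expression matrix: the ligands *Igf1* and *Igf2*, the receptor *Igf1r*, the binding proteins *Igfbp2*, *Igfbp3*, *Igfbp4*, *Igfbp5*, *Igfbp6* and *Igfbp7*, and the protease *Pappa*. They were chosen by gene symbol, and all 10 were found. RNAseq had been performed on 10 libraries of mouse cells, which all carried a p16/p19 (*Ink4a/Arf*) knockout and a retroviral human EGFRvIII, a constitutively active form of the EGF receptor found in glioma, on a C57BL/6 background at a passage below 10. AstroEGFR* (3 libraries, 1 from each of 3 independent astrocyte batches) were cells of the cerebral cortex at postnatal day 5, cultured with serum. PT (4 libraries) were glioma propagating cells grown out of tumours that AstroEGFR* had formed in the brain of CD1 Nude mice, with batch 1 the source of PT1 and PT4, batch 2 that of PT2 and batch 3 that of PT3, as the study and not the sample labels gives it. AstroEGFR* *Zfp423* (3 libraries) were the same batches carrying in addition a viral vector for *Zfp423*, a zinc finger transcription factor of neural development. The batches were bulk cultures of primary cells, PT may retain cells of the host tissue, and PT were kept in serum-free medium with EGF and FGF2, so that the tumour step and the change of medium cannot be told apart.

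IGF1 and IGF2 are secreted peptides that signal growth and survival through the receptor tyrosine kinase IGF1R, upstream of the PI3K and AKT kinases. In the extracellular space they are held by high-affinity binding proteins, IGFBP2 to IGFBP6 among them, which can withhold the ligand from the receptor or deliver it, while IGFBP7 is a related secreted protein of low affinity for IGF. PAPP-A, encoded by *Pappa*, frees IGF by cutting IGFBP4 and IGFBP5, and the stanniocalcins STC1 and STC2 inhibit it. In the brain, *Igfbp2* is known as a gene of glia and glial progenitors and is frequently high in glioma.

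The values are FPKM, which are scaled to transcript length and library size, the scale on which levels are set side by side between genes here. Some features are nevertheless listed low for what they encode: *Gapdh*, which every cell uses, was at 0.0106 to 2.52 FPKM in 9 libraries and at 50.1 FPKM in PT3, so the orders between genes below are orders of listed values. The FPKM hold no counts. From the smallest steps of weakly covered features, the depth relative to PT1 was estimated as 0.0682 in AstroEGFR*3 and 0.0899 in PT3 and as 0.502 to 0.924 in the other 7, so that low values in the 2 shallow libraries are the least certain. *Zfp423* was listed at 15.7, 9.73 and 105 FPKM in the libraries of the vector, above the 3.25 to 4.3 FPKM of AstroEGFR*, and at 0.641 to 2.78 FPKM in PT. *Cdkn2a*, the targeted locus, was listed at 3.96 to 130 FPKM, a value per gene that does not show which exons were present and so checks nothing. Small non-coding RNA made up 34.7% to 54.5% of the FPKM in the *Zfp423* libraries, 0.209%, 27.5% and 4.81% in AstroEGFR*1 to AstroEGFR*3 and 0.417% to 33.9% in PT, and the FPKM summed to 361102 to 860068 per library. The part of this in the results was not tested. Cell type markers set 3 libraries apart. The 12 markers of fibroblasts and meninges summed to 5659 FPKM in AstroEGFR*3, 4915 in AstroEGFR*1 *Zfp423* and 6590 in AstroEGFR*2 *Zfp423*, against 56.3 to 1035 FPKM in the other 7. The 11 markers of microglia summed to 1599 FPKM in AstroEGFR*1 *Zfp423* and 974 in AstroEGFR*2 *Zfp423*, and to 0.156 to 40.8 FPKM elsewhere. Of the 10 astrocyte markers, which summed to 377 to 1085 FPKM elsewhere, 211 FPKM were left in AstroEGFR*1 *Zfp423* and 64.5 FPKM in AstroEGFR*2 *Zfp423*, and *Gjb6* was listed at 0 in all 10 libraries. Pericyte and smooth muscle markers summed to 776 to 1995 FPKM in AstroEGFR* and to 1.22 to 22.7 FPKM in PT, oligodendrocyte lineage markers to 66.8 to 223 FPKM and to 131 to 1702 FPKM, and endothelial markers to at most 14.4 FPKM in any library. In the comparisons described below, 11 of 12 fibroblast markers lay lower in PT (median log2 difference -3.1, 2 of them past the adjusted threshold), as did all 3 pericyte and smooth muscle markers tested (median -5.54, all 3 past it), and with *Zfp423* all 11 microglial markers lay higher (median 3.28) and all 9 astrocyte markers tested lay lower (median -1.73), with 0 past the threshold. Of all features 47.9% lay lower in PT and 48.3% with *Zfp423*, and 1.24% and 0% passed the threshold. These directions are means over the batches. In batch 3 the microglial sum was 40.8 FPKM without the vector and 0.156 FPKM with it, and the astrocyte sum 1085 and 926 FPKM.

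Of the *Zfp423* libraries 2 of 3 also correlated best with an AstroEGFR* library of another number. The deviations of each PT library from its group mean, over features, correlated best with the AstroEGFR* library of its own batch (r = 0.35 and 0.42 for PT1 and PT4 of batch 1, 0.43 for PT2, 0.5 for PT3). So did those of AstroEGFR*1 *Zfp423* (r = 0.24). Those of AstroEGFR*2 *Zfp423* correlated with AstroEGFR*3 (r = 0.31) rather than with AstroEGFR*2 (r = -0.11), and those of AstroEGFR*3 *Zfp423* with AstroEGFR*2 (r = 0.22) rather than with AstroEGFR*3 (r = -0.26). AstroEGFR*3 and AstroEGFR*2 *Zfp423* both had high sums of fibroblast markers (5659 and 6590 FPKM), and the part of this in the correlations was not tested. *Zfp423* itself was at 105 FPKM in AstroEGFR*3 *Zfp423* and 9.73 FPKM in AstroEGFR*2 *Zfp423*, and the paper describes much stronger overexpression in batch 3. The labels were kept, and each difference within batch 2 or batch 3 of the *Zfp423* comparison rests on them.

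The binding proteins were by far the most abundant part of the axis. *Igfbp2* to *Igfbp7* summed to 1492 to 5874 FPKM per library, while *Igf1* and *Igf2* together made up 303 FPKM in AstroEGFR*3, 56.6 FPKM in AstroEGFR*1 *Zfp423*, 21.9 FPKM in AstroEGFR*2 *Zfp423* and at most 5.14 FPKM in the other 7 libraries. The order of the mean levels in AstroEGFR* was *Igfbp2*, *Igfbp3*, *Igfbp5*, *Igfbp7*, *Igfbp4*, *Igf1r*, *Igfbp6*, *Igf2*, *Igf1* and *Pappa*, but only *Igfbp7* over *Igfbp4* and *Igf1* over *Pappa* were neighbours whose order held in all 3 libraries. In PT the order was firmer at the top: *Igfbp3* exceeded *Igfbp2* in all 4 libraries, *Igfbp2* exceeded *Igfbp4* and *Igfbp5* exceeded *Igf1r*, while *Igfbp4* and *Igfbp5* changed places between libraries. In AstroEGFR* *Zfp423* no pair of neighbours kept its order in all 3 libraries.

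**Figure D1:**
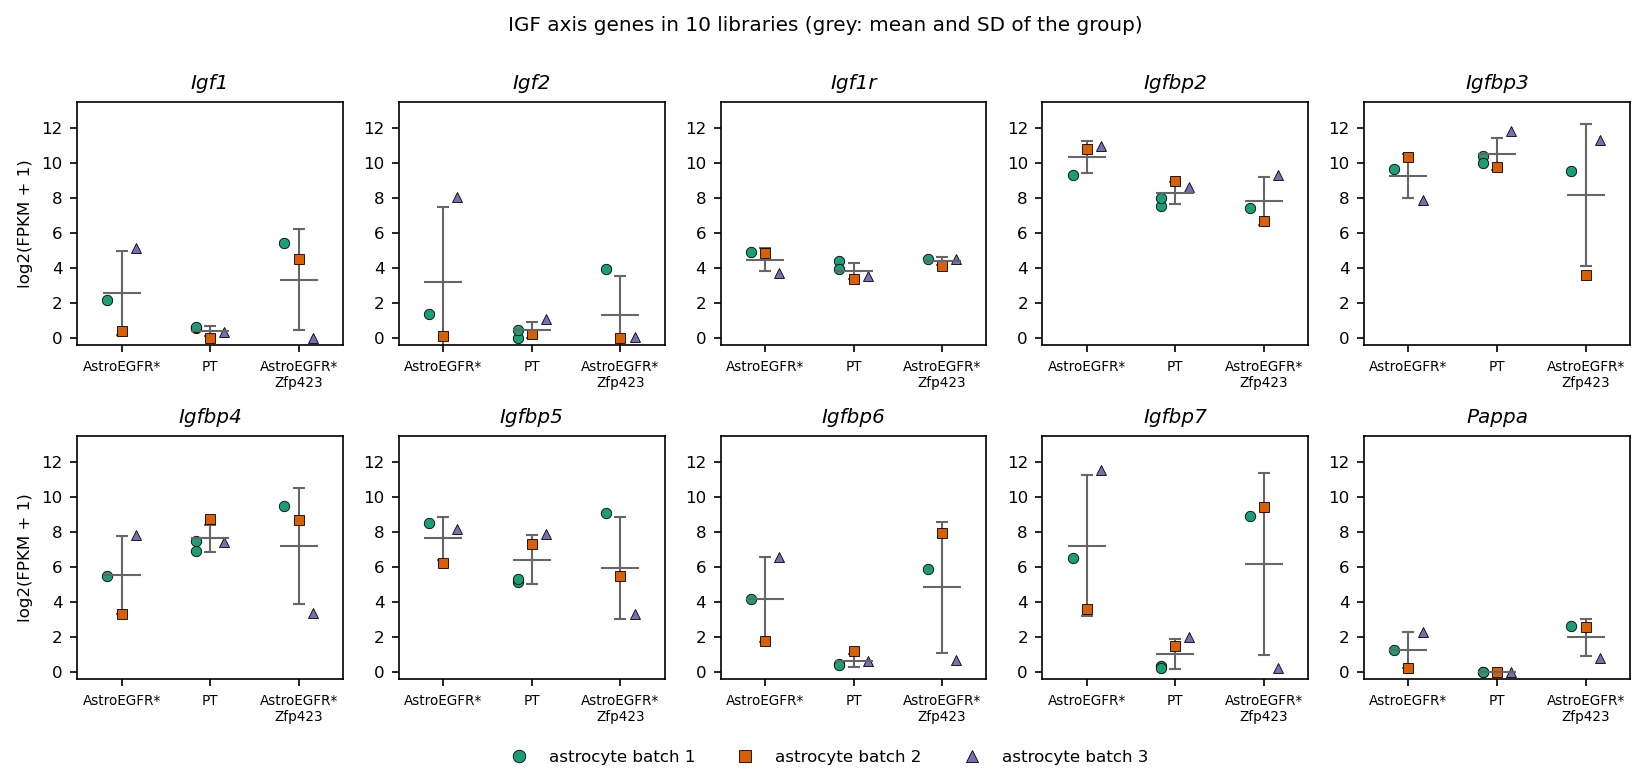
Level of each of the 10 genes on the log2(FPKM + 1) scale (y axis, the same in every panel) in AstroEGFR*, PT and AstroEGFR* *Zfp423* (x axis). Each symbol is 1 library, its shape and colour give the astrocyte batch, and the grey line and bar are the group mean and SD. *Igfbp2* is lower in all 4 PT than in all 3 AstroEGFR*, *Igfbp6*, *Igfbp7* and *Pappa* lie near the bottom in all PT, and the *Zfp423* libraries are spread widely for most of the genes.

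The shares of the binding proteins differed between the groups. *Igfbp3* was the most abundant of them in all 4 PT, with 80%, 44.1%, 81.5% and 68.3% of the sum in PT1 to PT4, and *Igfbp2* came next with 9.04% to 25.6%. In AstroEGFR* a different gene led in each library. *Igfbp3* held 40.9% of the sum in AstroEGFR*1, *Igfbp2* held 56.9% in AstroEGFR*2 and *Igfbp7* held 51.9% in AstroEGFR*3. With *Zfp423*, *Igfbp3* (27.2%) and *Igfbp4* (26.3%) led in batch 1, *Igfbp7* (46.1%) and *Igfbp4* (27.3%) in batch 2, and *Igfbp3* alone held 79.6% in batch 3.

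**Figure D2:**
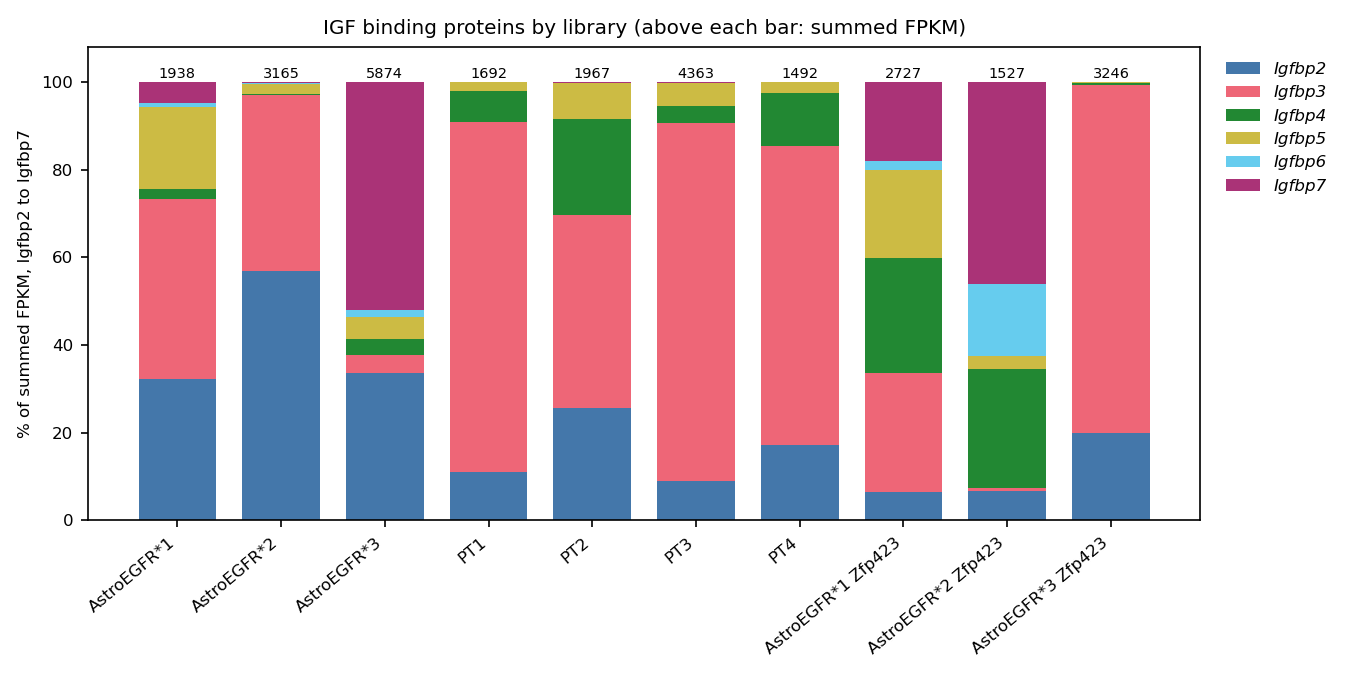
Share of each binding protein gene in the summed FPKM of *Igfbp2* to *Igfbp7* (y axis, percent) for each of the 10 libraries (x axis), with the sum in FPKM above each bar. *Igfbp3* holds the largest share in all 4 PT, between 44.1% and 81.5%, and the shares of *Igfbp7* are largest in AstroEGFR*3 (51.9%) and AstroEGFR*2 *Zfp423* (46.1%).

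PT and AstroEGFR* were compared to learn how the axis differed once the astrocytes had formed tumours. Differences were fitted with limma on log2(FPKM + 1) over the 12261 features that averaged 1 FPKM or more, and p-values were adjusted over all of them by the Benjamini-Hochberg method. Of the 9 genes of the axis that passed the filter, 7 lay lower in PT and 2 lay above AstroEGFR*, and their median log2 difference was -2.07, beside 0.03 over all features tested. With limma 0 of the 9 passed an adjusted p of 0.05, where 1.24% of all features did. At an unadjusted p below 0.05 there were 3, *Igfbp2*, *Igfbp6* and *Igfbp7*, beside 13.6% of all features. In these 3 of the 9 the groups did not overlap, which held for 14.8% of all features, and 5 of the 9 were lower in every batch, which held for 20.8% of all.

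*Igfbp2*, which encodes a binding protein secreted by glia, was the most even of these differences. AstroEGFR* of batches 1, 2 and 3 held 626, 1801 and 1976 FPKM, whereas PT1 to PT4 held 184, 504, 394 and 255 FPKM. Every PT library lay below every AstroEGFR* library. On the log2(FPKM + 1) scale AstroEGFR* averaged 10.35 ± 0.92 (SD, n = 3) and PT averaged 8.29 ± 0.65 (SD, n = 4) (difference -2.07, SE 0.55, limma with Benjamini-Hochberg adjustment, adjusted p = 0.142). In an exact permutation test of the library labels, two-sided, p = 0.0286, the smallest that 3 libraries against 4 can give. This test, here and for the genes below, treats the 7 libraries as exchangeable, although they share batches, and an exact test of signs over the 3 batches can give no p below 0.25. Within the batches the difference was -1.53, -1.83 and -2.32, and with the batch as a replicate block *Igfbp2* passed (difference -1.86, SE 0.25, limma adjusted p = 0.0292), as did 3.87% of all features. It was the only 1 of the 9 tested to pass with the block, where the adjusted p was 0.0641 for *Igfbp7* and 0.0964 for *Igfbp6*.

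*Igfbp7* had 90.9, 11.2 and 3048 FPKM in the AstroEGFR* of batches 1, 2 and 3, and PT1 to PT4 had 0.299, 1.78, 3.06 and 0.2 FPKM. The PT libraries were all below the AstroEGFR* libraries, which themselves spread over 272-fold. The difference was -6.2 (SE 1.63, limma adjusted p = 0.141, two-sided exact permutation p = 0.0286), and -4.03 (SE 0.89, limma adjusted p = 0.154) without AstroEGFR*3, the library of high fibroblast markers and low depth.

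*Igfbp6*, whose product prefers IGF2 over IGF1, had 17, 2.39 and 95.9 FPKM in the AstroEGFR* of batches 1, 2 and 3, while PT1 to PT4 had 0.382, 1.29, 0.538 and 0.331 FPKM. Again the groups did not overlap, with AstroEGFR*2 nearest to PT. The difference was -3.5 (SE 0.99, limma adjusted p = 0.164, two-sided exact permutation p = 0.0286). It was -2.29 (SE 0.69, limma adjusted p = 0.281) without AstroEGFR*3, and it passed without AstroEGFR*2 (limma adjusted p = 0.0377).

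*Igfbp3*, which encodes the main carrier of IGF in serum, and *Igfbp4*, whose product is the principal substrate of PAPP-A, were the 2 genes of the axis with higher means in PT. *Igfbp3* was listed at 792, 1268 and 235 FPKM in AstroEGFR* and at 1353, 868, 3558 and 1019 FPKM in PT, and the groups overlapped. The difference of 1.21 (SE 0.73, limma adjusted p = 0.532) came mostly from batch 3, where it was 3.91, while it was 0.57 in batch 1 and -0.55 in batch 2. Without batch 3 it was 0.08 (SE 0.45). *Igfbp4* was listed at 44.5, 9.21 and 225 FPKM in AstroEGFR* and at 119, 431, 171 and 179 FPKM in PT, where AstroEGFR*3 lay above 3 of the 4 PT. The difference of 2.08 (SE 0.97, limma adjusted p = 0.408) was 3.21 (SE 0.73, limma adjusted p = 0.16) without AstroEGFR*3 and 0.98 (SE 0.76, limma adjusted p = 0.7) without AstroEGFR*2.

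*Igfbp5*, another substrate of PAPP-A, was listed at 367, 73.8 and 293 FPKM in AstroEGFR* and at 34.8, 161, 236 and 38.4 FPKM in PT. PT1 and PT4, which share batch 1, were alike and low, and the groups overlapped (difference -1.23, SE 0.85, limma adjusted p = 0.598). Batch 1 differed by -3.29, batch 2 by 1.11 and batch 3 by -0.31.

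*Pappa* was listed at 1.39, 0.185 and 3.86 FPKM in AstroEGFR* and at 0.0185, 0.0163, 0.0214 and 0.0135 FPKM in PT. All 4 PT were thus close to 0 and below each AstroEGFR* (two-sided exact permutation p = 0.0286), but the mean of 0.787 FPKM over these 7 libraries was under the filter and *Pappa* had no adjusted p there. With no filter on low values the difference was -1.24 (SE 0.43, limma adjusted p = 0.328).

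Both ligands were low in PT. *Igf1* was listed at 3.5, 0.338 and 34.7 FPKM in AstroEGFR* and at 0.505, 0.00258, 0.253 and 0.523 FPKM in PT. AstroEGFR*2 lay within the range of PT, and the difference was -2.2 (SE 0.98, limma adjusted p = 0.387). *Igf2*, an imprinted gene of fetal growth, was listed at 1.64, 0.0683 and 268 FPKM in AstroEGFR* and at 0.00315, 0.18, 1.1 and 0.357 FPKM in PT, and its difference of -2.75 (SE 1.7, limma adjusted p = 0.548) rested on AstroEGFR*3. Without AstroEGFR*3, neither ligand reached the mean of 1 FPKM in the libraries left. In bulk cultures, fewer cells of a type and less RNA per cell cannot be told apart for any of these genes.

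*Igf1r* varied least of the 10 genes, with an SD of 0.53 over the 10 libraries on the log2 scale, against 1.12 to 4.32 for the others. It was listed at 28.7, 27.5 and 12.1 FPKM in AstroEGFR* and at 20.3, 9.22, 10.9 and 14.4 FPKM in PT, with AstroEGFR*3 inside the range of PT. The difference was -0.66 (SE 0.39, limma adjusted p = 0.525), and -1.04 (SE 0.35, limma adjusted p = 0.346) without AstroEGFR*3.

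**Figure D3:**
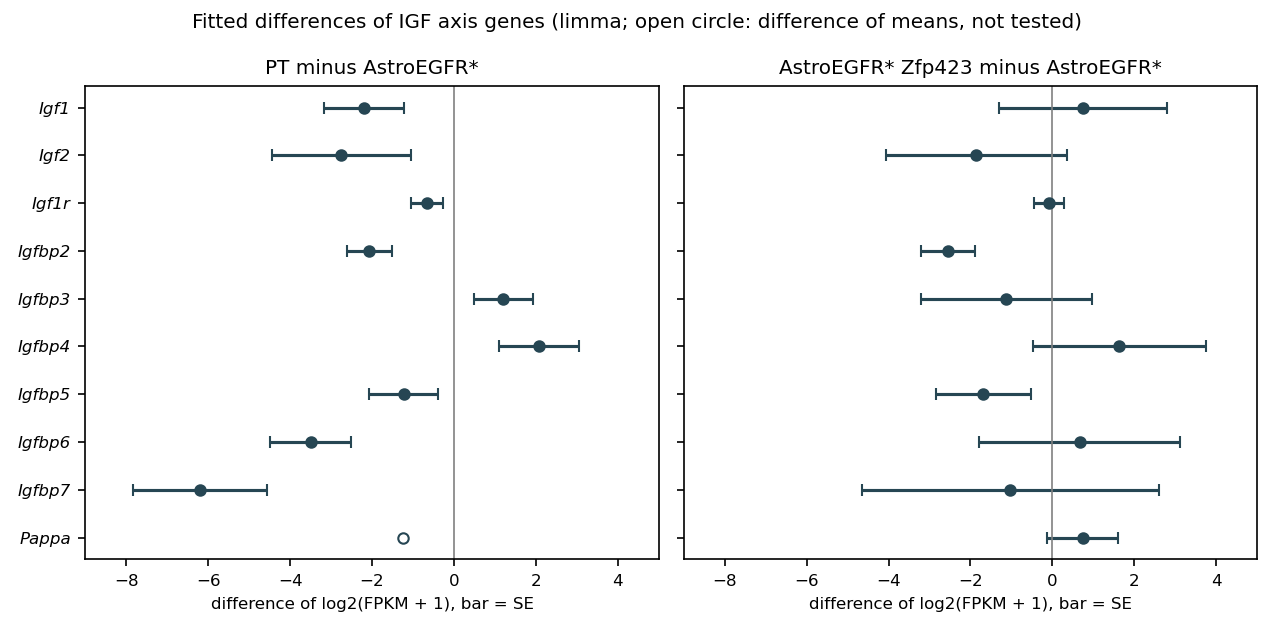
Difference of each gene on the log2(FPKM + 1) scale (x axis) between PT and AstroEGFR* (left) and between AstroEGFR* *Zfp423* and AstroEGFR* (right), as fitted by limma with its SE as a bar. The open circle of *Pappa* is a difference of group means that was under the filter and not tested. In PT the points run from -6.2 for *Igfbp7* to 2.08 for *Igfbp4*, and on the right the bars of all genes but *Igfbp2* and *Igfbp5* reach across 0.

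AstroEGFR* with and without the *Zfp423* vector were compared in limma with the batch as a block, over 12366 features, to learn how forced *Zfp423* moved the axis. With limma 0 of the 10 genes of the axis passed the adjusted threshold, as did 0% of all features. At an unadjusted p below 0.05 there was 1, *Igfbp2*, beside 7.38% of all features. The median difference of the 10 was -0.55, beside 0.02 over all features. The groups overlapped for all 10 genes, where 11.5% of all features had groups that did not.

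*Igfbp2* was listed at 173, 100 and 644 FPKM with *Zfp423* in batches 1, 2 and 3, each below the AstroEGFR* library of the same number (differences -1.85, -4.15 and -1.62). AstroEGFR*3 *Zfp423* nonetheless lay above AstroEGFR*1. It was the only 1 of the 10 genes lower in all 3 batches, which was so for 15.2% of all features. The fitted difference was -2.54 (SE 0.66, limma adjusted p = 0.628), and without the block it was -2.54 (SE 0.82, limma adjusted p = 0.728). An exact test of the signs of 3 differences, two-sided, gave p = 0.25, the smallest that it can give. The 2 comparisons share the AstroEGFR* libraries, so that the low *Igfbp2* of PT and of the *Zfp423* libraries are not independent of each other.

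For 5 other genes batches 1 and 2 were higher and batch 3 lower with *Zfp423*, each by at least 1 on the log2 scale: *Igf1*, *Igfbp4*, *Igfbp6*, *Igfbp7* and *Pappa*. Of all features 2.54% did so. This pattern was singled out after the values were seen. In batches 2 and 3 it rests on the labels, which the correlations above did not follow, although the level of *Zfp423* was highest in batch 3. Beside AstroEGFR*3, with 34.7 FPKM of *Igf1* and 3048 FPKM of *Igfbp7*, AstroEGFR*2 *Zfp423* was lower in both. It was higher in *Igfbp4* (417 against 225 FPKM), *Igfbp6* (250 against 95.9 FPKM) and *Pappa* (4.89 against 3.86 FPKM). *Igfbp7* was listed at 491, 704 and 0.165 FPKM with *Zfp423* in batches 1, 2 and 3, a ratio of 4256 between the highest and the lowest, the widest of the 10 genes in this group. *Igf1* was listed at 42.5, 21.9 and 0.0216 FPKM, *Igfbp6* at 58, 250 and 0.596 FPKM and *Pappa* at 5.24, 4.89 and 0.73 FPKM. In each case AstroEGFR*3 *Zfp423* was far below the other 2. *Igfbp4* was listed at 719 and 417 FPKM in batches 1 and 2 and at 9.54 FPKM in batch 3, near the 9.21 FPKM of AstroEGFR*2.

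The limma differences of these 5 genes were accordingly uncertain, with adjusted p-values from 0.82 for *Pappa* to 0.949 for *Igfbp6*, over a range from -1.03 (SE 3.63) for *Igfbp7* to 1.64 (SE 2.12) for *Igfbp4*. With batch 3 left out, an alternative chosen after the data were seen, they were 3.69 (SE 0.36) for *Igf1*, 4.67 (SE 0.46) for *Igfbp4*, 3.96 (SE 1.19) for *Igfbp6*, 4.14 (SE 0.94) for *Igfbp7* and 1.85 (SE 0.45) for *Pappa*, with limma adjusted p-values from 0.112 to 0.309. None of them passed.

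*Igfbp3* ran the other way between the batches, with 741, 11.2 and 2583 FPKM with *Zfp423* in batches 1, 2 and 3. Its 11.2 FPKM in AstroEGFR*2 *Zfp423* was the lowest of the 10 libraries, while PT3 had the highest, 3558 FPKM (fitted difference -1.12, SE 2.08, limma adjusted p = 0.894). *Igfbp5* was listed at 546, 43.8 and 8.95 FPKM with *Zfp423* (difference -1.69, SE 1.16, limma adjusted p = 0.706), and its difference was -0.08 without either library of batch 3 and -2.81 without either of batch 1. *Igf2* was at 14.1, 0.0212 and 0.0388 FPKM, so that of the 3 only batch 1 was above 1 FPKM (difference -1.86, SE 2.21, limma adjusted p = 0.823). *Igf1r* was at 22.1, 16.6 and 21.9 FPKM and differed by -0.08 (SE 0.37, limma adjusted p = 0.962).

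**Figure D4:**
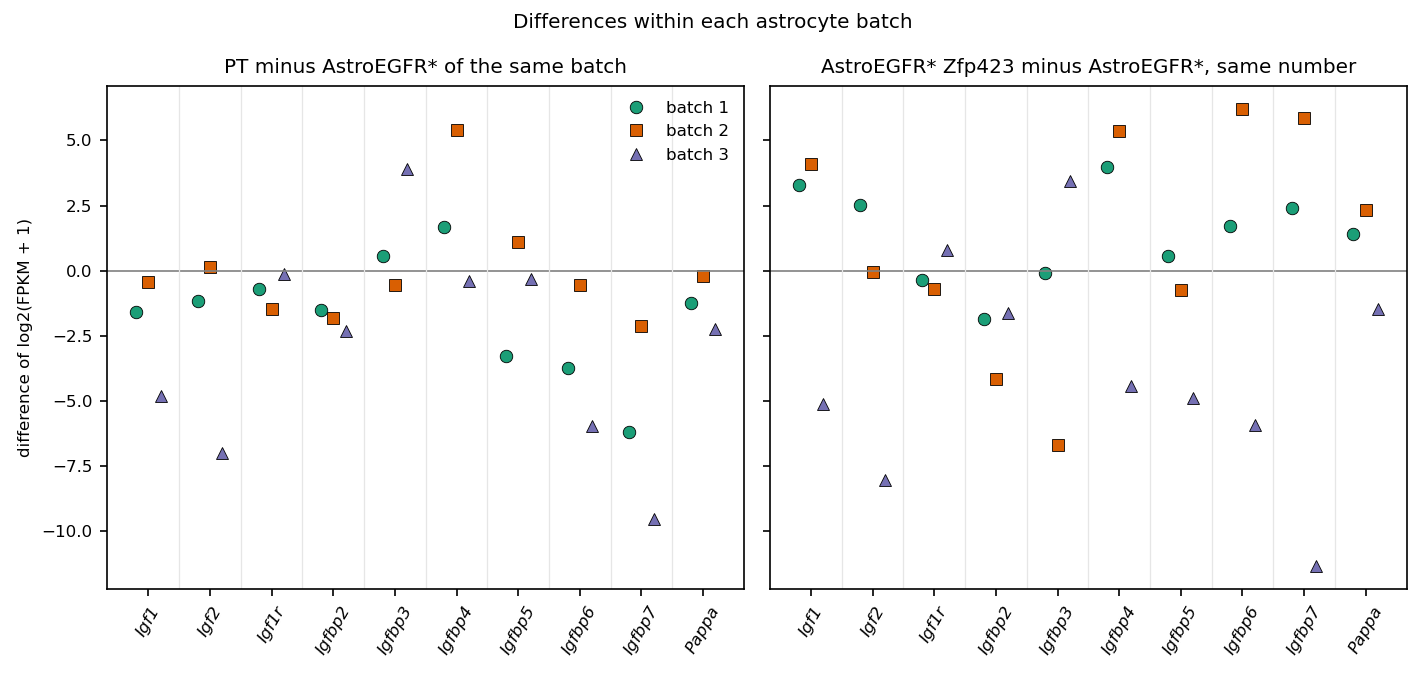
Difference on the log2(FPKM + 1) scale (y axis) within each astrocyte batch for the 10 genes (x axis), PT minus AstroEGFR* on the left (batch 1 is the mean of PT1 and PT4) and AstroEGFR* *Zfp423* minus AstroEGFR* of the same number on the right. Each symbol is 1 batch and no error is drawn, since a side holds 1 library, or 2 for PT of batch 1. *Igfbp2* is below 0 in all 3 batches on both sides, and on the right batch 3 lies opposite to batches 1 and 2 for *Igf1*, *Igfbp4*, *Igfbp6*, *Igfbp7* and *Pappa*.

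Across the 10 libraries, *Igf1*, *Igfbp6*, *Igfbp7* and *Pappa* had the same 3 libraries highest, AstroEGFR*3, AstroEGFR*1 *Zfp423* and AstroEGFR*2 *Zfp423*, and these were also the 3 with the highest sum of fibroblast markers. The same 3 were highest for 3.19% of the 9053 features of 5 FPKM or more on average, which do not include *Pappa*. The 4 genes were picked out after their values were seen. In these 3 libraries *Igfbp7* was at least at 491 FPKM and in the other 7 at most at 90.9 FPKM, and *Igf1* at least at 21.9 against at most 3.5 FPKM. Pearson's r with the log2 sum of fibroblast markers was 0.88 for *Igf1*, 0.89 for *Igfbp6*, 0.91 for *Igfbp7* and 0.91 for *Pappa*, and with the log2 sum of microglial markers 0.91, 0.9, 0.84 and 0.9, over 10 libraries that share batches and differ in depth. The part of fibroblasts or microglia in these levels was not tested. In AstroEGFR*3, the shallowest library, the microglial markers summed to 40.8 FPKM, the third highest of the 10 sums, with 2 of the 11 (*Aif1* and *Ptprc*) listed at 0. There *Csf1r* and *C1qa* were at 0.33 and 0.697 FPKM, beside 0.333 and 0.651 FPKM in AstroEGFR*2 and 0.691 and 1.71 FPKM in AstroEGFR*1. Only 1 of the 11 averaged 1 FPKM or more over the AstroEGFR* and PT libraries.

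The other genes did not share this order. *Igf2* was high in AstroEGFR*3 and AstroEGFR*1 *Zfp423* but at 0.0212 FPKM in AstroEGFR*2 *Zfp423*, the library with the most fibroblast marker RNA. *Igfbp4* was high in the same 3 libraries and also in PT2. *Igfbp3* had its 3 lowest values in these libraries (r = -0.59 with the fibroblast sum), and *Igfbp2* was unrelated to it (r = 0). Between genes of the axis, r over the 10 libraries was 0.91 to 0.96 for the 6 pairs among *Igf1*, *Igfbp6*, *Igfbp7* and *Pappa*, and lowest for *Igfbp3* with *Igfbp6* (r = -0.82, Spearman's rho = -0.82). In AstroEGFR*3, AstroEGFR*1 and AstroEGFR*2, the order of *Pappa* was also that of *Igfbp4*, from 3.86 down to 0.185 FPKM and from 225 down to 9.21 FPKM, but in PT *Igfbp4* was at 119 to 431 FPKM with *Pappa* close to 0. The order within AstroEGFR* was not particular to this pair, since *Igf1*, *Igf2*, *Igfbp6* and *Igfbp7* had it as well.

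**Figure D5:**
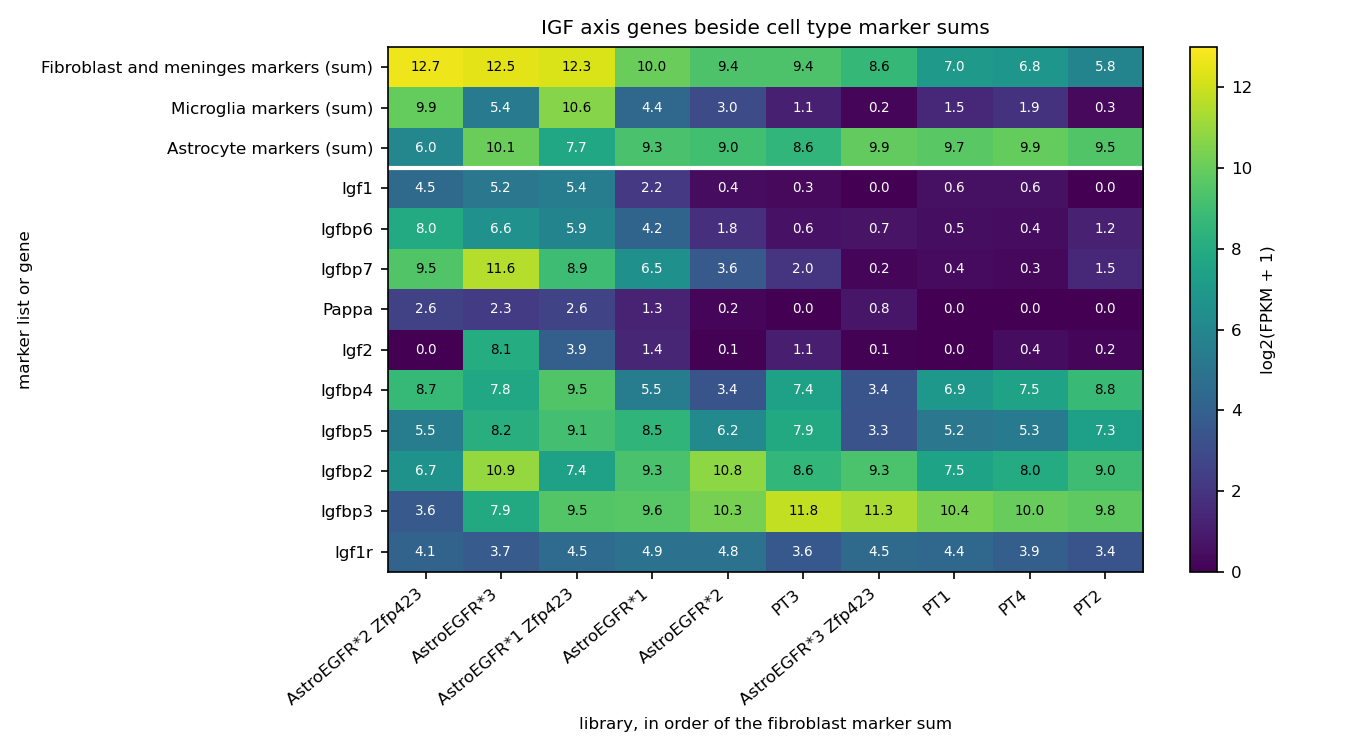
Level of 3 marker sums (top) and of the 10 genes (below the white line) on the log2(FPKM + 1) scale, printed in each cell and coloured from 0 to 13, for the 10 libraries in order of the fibroblast marker sum (x axis). The 3 libraries on the left have the highest *Igf1*, *Igfbp6*, *Igfbp7* and *Pappa*, 2 of them also have high microglial and low astrocyte marker sums, and *Igfbp3* is highest further to the right.

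The features most like each gene were taken over the 10 libraries from the 9053 features. For *Igf1* they were *Rftn1* (r = 0.993), *Thbd* (r = 0.98) and *Epha3* (r = 0.978), and for *Igfbp7* the lysyl oxidase gene *Lox* (r = 0.988), *Epha3* (r = 0.988) and the collagen-binding integrin gene *Itga11* (r = 0.986). For *Igfbp6* they were *Inhba* (r = 0.993), *Nid1* (r = 0.993) and *Ltbp2* (r = 0.99), which encode an activin subunit and 2 extracellular matrix proteins. For *Pappa* they were the cathepsin K gene *Ctsk* (r = 0.964), the signalling adaptor gene *Grb10* (r = 0.963) and the leukocyte gene *Cd53* (r = 0.958). *Igf2* was closest to *Gdf10* (r = 0.988), *Rmnd5b* (r = 0.932) and *Pcsk5* (r = 0.93). *Igfbp2* was closest to *Cyp7b1* (r = 0.933), *Bex1* (r = 0.845) and *Lmo4* (r = 0.831), *Igfbp3* to *Ank3* (r = 0.948), *Ostm1* (r = 0.948) and *Dtx3* (r = 0.946), and *Igf1r* to *Crebzf* (r = 0.942), *Armc10* (r = 0.917) and *Aagab* (r = 0.916). *Igfbp4* was closest to *Ppic* (r = 0.905), *Calcrl* (r = 0.898) and *Gypc* (r = 0.898) and *Igfbp5* to *Cd9* (r = 0.899), *Pdcd4* (r = 0.868) and *Fuca2* (r = 0.867). These are the highest of 9053 values and are given as a description.

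Promoters from RefSeq (GRCm38.p6, 250 bases before to 50 after each start) were matched for 9 of the 10 genes, 13 promoters in all, *Pappa* having no entry. They were searched on both strands for GCACCC, an arm of the inverted repeat to which Zfp423 binds, which is present in 15.7% of the 32851 promoters of the table. It was found in 2 of the 13, both of *Igf2*. The first had it at 3 positions (-207, -120 and -102 from the start) and the other at 2 (-138 and -96). The whole inverted repeat was present in 0 of the 13 and in 8 promoters of the table. The *Igf2* promoter with 3 is shown for these matches, which are in capitals (a match on the opposite strand reads GGGTGC), as the 250 bases before the start at chr7:142658805-142659054 on the minus strand.
*Igf2*: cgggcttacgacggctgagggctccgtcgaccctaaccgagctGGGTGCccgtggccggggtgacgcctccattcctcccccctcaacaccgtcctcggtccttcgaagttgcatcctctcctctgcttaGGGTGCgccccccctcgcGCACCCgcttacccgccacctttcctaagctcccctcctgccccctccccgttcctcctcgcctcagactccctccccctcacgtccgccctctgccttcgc

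The 250 bases before the start are also shown for *Igf1*, *Igfbp6* and *Igfbp7*, whose levels ran together over the 10 libraries, and for *Igfbp2*, the gene that passed with the block, with each CG pair in capitals. The median promoter of the table held 6 CG pairs in this stretch, with quartiles of 2 and 16. *Igf1* (chr10:87860861-87861110, plus strand) held 5 and *Igfbp6* (chr15:102143936-102144185, plus strand) 7, whereas *Igfbp7* (chr5:77408046-77408295, minus strand) held 26 and *Igfbp2* (chr1:72824230-72824479, plus strand) 14. *Igfbp2* had another promoter, not shown (chr1:72825137-72825436), with 14 CG pairs in its 300 bases, beside 18 in the 300 of the one shown. The promoters of the 3 genes that had the same 3 highest libraries thus differed in CG content.
*Igf1*: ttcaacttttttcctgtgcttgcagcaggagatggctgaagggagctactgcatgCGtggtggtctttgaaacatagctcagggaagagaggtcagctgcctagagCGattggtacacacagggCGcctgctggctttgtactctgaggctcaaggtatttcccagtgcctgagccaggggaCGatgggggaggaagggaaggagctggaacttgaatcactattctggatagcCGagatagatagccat
*Igfbp6*: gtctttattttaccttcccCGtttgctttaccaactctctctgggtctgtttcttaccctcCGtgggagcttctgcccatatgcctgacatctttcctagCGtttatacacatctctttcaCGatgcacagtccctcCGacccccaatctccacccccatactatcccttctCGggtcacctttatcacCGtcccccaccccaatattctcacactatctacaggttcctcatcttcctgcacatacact
*Igfbp7*: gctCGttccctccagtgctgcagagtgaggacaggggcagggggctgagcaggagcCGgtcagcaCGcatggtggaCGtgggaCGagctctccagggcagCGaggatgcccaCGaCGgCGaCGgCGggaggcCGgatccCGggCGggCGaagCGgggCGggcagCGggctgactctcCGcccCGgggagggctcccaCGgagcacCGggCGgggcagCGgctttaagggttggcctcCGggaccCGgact
*Igfbp2*: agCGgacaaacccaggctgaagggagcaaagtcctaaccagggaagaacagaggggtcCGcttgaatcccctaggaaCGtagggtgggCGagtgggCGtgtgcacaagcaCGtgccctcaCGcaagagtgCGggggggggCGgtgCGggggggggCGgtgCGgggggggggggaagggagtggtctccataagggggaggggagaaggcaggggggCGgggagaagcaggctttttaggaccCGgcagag

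The other genes of the pathway were taken from 5 lists, whose medians stand beside 0.03 in PT and 0.02 with *Zfp423* over all features, and with limma 0 of them passed the adjusted threshold in either comparison. Of the 24 adaptors and kinases downstream of the receptor, 23 were tested, 9 lay higher and 14 lower in PT (median -0.16), and 5 of the 23 had an unadjusted p below 0.05, beside 13.6% of all features. With *Zfp423*, 15 lay higher and 8 lower (median 0.12), and 2 had an unadjusted p below 0.05, beside 7.38% of all features. In PT the largest differences of this list were those of *Grb10*, an imprinted adaptor that restrains the insulin and IGF1 receptors, and of its relative *Grb14*. *Grb10* was listed at 8.32, 2.45 and 71.1 FPKM in AstroEGFR*, at 0.0194 to 0.285 FPKM in PT and at 135, 195 and 0 FPKM with *Zfp423*, so it had the same 3 libraries highest as *Pappa*. Its difference in PT was -3.56 (SE 0.91, limma adjusted p = 0.132) without overlap of the groups. That of *Grb14* was -1.6 (SE 0.7, limma adjusted p = 0.375). With *Zfp423* the differences were 1.17 (SE 2.57, limma adjusted p = 0.909) for *Grb10* and -1.46 (SE 0.81, limma adjusted p = 0.665) for *Grb14*. *Foxo1*, a transcription factor that AKT holds out of the nucleus, was singled out after its values were seen. It did not overlap with AstroEGFR* (14.1 to 27.7 FPKM) in PT (4.8 to 10.7 FPKM) nor with *Zfp423* (3.4 to 10.3 FPKM), by -1.27 (SE 0.33, limma adjusted p = 0.141) and -1.4 (SE 0.26, limma adjusted p = 0.628). The groups of the PI3K subunit gene *Pik3cb*, likewise singled out afterwards, did not overlap in either comparison as well (-1.05, SE 0.27, and -0.67, SE 0.32). Of all features 14.8% and 11.5% did not overlap, and both comparisons share the AstroEGFR* libraries.

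Of 7 genes of the cleavage of binding proteins, 6 were tested, with 3 higher and 3 lower in PT (median 0.4) and 2 at an unadjusted p below 0.05 (13.6% of all features), both stanniocalcins. *Stc2* was listed at 1.53, 0.741 and 3.73 FPKM in AstroEGFR* and at 6.96, 25.5, 19.8 and 12.3 FPKM in PT (difference 2.5, SE 0.51, limma adjusted p = 0.0702). *Stc1* was at 0.0858, 0.763 and 0.386 FPKM in AstroEGFR* and at 5.09, 1.83, 9.37 and 3.45 FPKM in PT (difference 1.94, SE 0.48, limma adjusted p = 0.121). The libraries of both genes did not overlap between the groups, as was so for 14.8% of all features. With *Zfp423* the difference was 1.51 (SE 0.8, limma adjusted p = 0.661) for *Stc2* and 0.52 (SE 0.76, limma adjusted p = 0.863) for *Stc1*. There the list had 2 genes higher and 4 lower (median -0.24) and 0 at an unadjusted p below 0.05. *Pappa2*, the relative of *Pappa* and singled out after its values were seen, was listed at 8.6 FPKM in AstroEGFR*3 and at no more than 0.773 FPKM in the other libraries (difference -1.21, SE 0.77, limma adjusted p = 0.562, in PT and -0.84, SE 0.92, limma adjusted p = 0.808, with *Zfp423*).

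Of the 5 related receptors and ligands, *Insr* and *Igf2r* were tested, and the insulin genes *Ins1* and *Ins2* were listed at 0 in all 10 libraries. *Insr*, the insulin receptor gene, was at 5.84 to 21.2 FPKM and *Igf2r*, whose product takes up and degrades IGF2, at 20.3 to 79.8 FPKM. *Igf2r* differed by 0.94 (SE 0.25, limma adjusted p = 0.628) with *Zfp423* and by 0.38 (SE 0.52, limma adjusted p = 0.827) in PT, and *Insr* by -0.08 (SE 0.62) and 0.19 (SE 0.39). Of the 3 other binding proteins *Igfbpl1* alone was tested (difference in PT -1.7, SE 0.72, limma adjusted p = 0.364). Among the 5 genes of the *Igf2* locus and of proteins that bind its messenger, 2 were tested in PT, both lower (median -0.6), and 3 with *Zfp423*, 2 of them higher (median 0.58). *H19*, the imprinted neighbour of *Igf2*, was listed at 294 FPKM in AstroEGFR*3, where *Igf2* was at 268 FPKM, but at 10.9 FPKM in PT1 and 33 FPKM in PT4, where *Igf2* was at 0.00315 and 0.357 FPKM. The difference of *H19* was -0.97 (SE 1.88, limma adjusted p = 0.88) in PT and -2.15 (SE 2.1, limma adjusted p = 0.786) with *Zfp423*. *Igf2bp3* was at 7.44, 9.13 and 0.365 FPKM with *Zfp423* and at 0.414 to 1.32 FPKM in AstroEGFR* (difference 1.43, SE 0.83, limma adjusted p = 0.674).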

How the data were processed

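RNAseq values of 10 libraries were used. The authors deposited 1 matrix of FPKM for 23230 features named by gene symbol. The submitters' processing notes name TopHat 1.3, Cuffnorm and mm9, in no stated order. The labels give a TruSeq kit, the paper stranded libraries without ribosomal RNA, and the vector for *Zfp423* is lentiviral in the labels and retroviral in the paper. Without a known strand, reads of *Igf2* and its antisense gene cannot be told apart. Every column was used, and no 2 libraries were identical.

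The genes and lists were chosen with earlier results of these data known. log2(FPKM + 1) was fitted with limma 3.58.1 (R 4.3.3, empirical Bayes with trend) for features averaging 1 FPKM or more in the libraries compared, and Benjamini-Hochberg adjusted p-values below 0.05 were called. This scale understates changes of low values. PT was fitted without a block, and the *Zfp423* comparison with the astrocyte batch as a block, after the study's own pairing. Exact permutation of the library labels was added for the 10 genes. The procedure was tested on simulated data. FPKM hold no counts, so count models and intervals were not used. The p-values measure the spread between these libraries, which may in part be technical. All 10 genes were described, with the 3 features of highest r for each and, from each pathway list, any gene past the threshold or else the 2 with the largest difference in either comparison. Alternatives were a pseudocount of 0.1, no filter, median-ratio scaling, no trend, all 10 libraries in 1 fit, the block or its absence, PT1 and PT4 averaged, each library left out and, chosen after the data were seen, batch 3 left out. Protein sequences were not used here.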

Additional observations from a re-analysis of the deposited data

Results flagged for a closer look

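For 4 of the 10 genes the difference between PT and AstroEGFR* had opposite signs in different astrocyte batches. The highest minus the lowest batch difference, on the log2(FPKM + 1) scale, was 7.14 for *Igf2*, 4.46 for *Igfbp3*, 5.80 for *Igfbp4* and 4.40 for *Igfbp5*. For *Igf2*, *Igfbp3* and *Igfbp4* the extremes were batches 2 and 3. AstroEGFR*3 had the highest level of *Igf2* and *Igfbp4* and the lowest of *Igfbp3* among the AstroEGFR* libraries. For *Igfbp5* they were batches 1 and 2.

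With *Zfp423* the signs differed between batches for 9 of the 10 genes, *Igfbp2* being the exception. Of all features 20.8% were lower in all 3 batches in PT and 15.2% with *Zfp423*. The share of all features with mixed signs was not computed, so these counts are not read as particular to the axis. The same spread was 17.20 for *Igfbp7*, 12.13 for *Igfbp6*, 10.54 for *Igf2*, 10.15 for *Igfbp3*, 9.78 for *Igfbp4*, 9.23 for *Igf1*, 5.46 for *Igfbp5*, 3.80 for *Pappa* and 1.51 for *Igf1r*. Each batch has 1 library a side (2 PT libraries in batch 1), so these differences between batches were not tested. In batches 2 and 3 of *Zfp423* they rest on the labels, which the correlations between libraries did not follow, although the level of *Zfp423* was highest in batch 3.

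Of the 10 genes, 0 had a PT library that stood apart from the other 3 by Dixon's criterion on the log2 scale.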

How the results depend on the processing

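For PT against AstroEGFR*, 152 features were called, 62 with all 10 libraries in 1 fit, 475 with the astrocyte batch as a replicate block, 61 with PT1 and PT4 averaged and 8 with batch 3 left out, and between 7 (without AstroEGFR*1) and 123 (without AstroEGFR*2) with each library left out. Of the genes of the axis 0 were called, 1 with the replicate block (*Igfbp2*), and 0 to 1 with each library left out (*Igfbp6*, without AstroEGFR*2). For *Zfp423* 0 features were called, 2 without the replicate block and 0 to 60 with each library left out (47 without AstroEGFR*2, 60 without AstroEGFR*2 *Zfp423*), and 0 genes of the axis under every alternative run. Over 261 refits of single genes, 237 kept direction and side of the threshold, 2 came to pass it, and 22 turned their direction, all of them in the *Zfp423* comparison and on leaving out libraries. *Igf2* (1.23) and *Igfbp7* (4.14) turned with batch 3 left out. With each library left out, the differences ran from -0.93 to 3.69 for *Igf1*, -4.04 to 1.23 for *Igf2*, -0.53 to 0.22 for *Igf1r*, -3.40 to 1.68 for *Igfbp3*, -0.22 to 4.67 for *Igfbp4*, -2.11 to 3.96 for *Igfbp6*, -4.47 to 4.14 for *Igfbp7* and -0.05 to 1.85 for *Pappa*. *Igfbp5* kept its sign but ran from -2.81 to -0.08. In PT they ran from -3.28 to -2.07 for *Igf1*, -4.30 to -2.61 for *Igf2*, -1.04 to -0.45 for *Igf1r*, 0.52 to 1.73 for *Igfbp3*, 0.98 to 3.21 for *Igfbp4*, -1.94 to -0.79 for *Igfbp5*, -4.71 to -2.29 for *Igfbp6* and -8.01 to -4.03 for *Igfbp7*. Without AstroEGFR*3, *Igf1* and *Igf2* fell under the filter, so their ranges do not include the refit without that library. *Igfbp2* ran from -2.60 to -1.77 in PT and from -3.00 to -1.73 with *Zfp423* over all alternatives. The causes were not tested. Depth limits the low values of AstroEGFR*3 and PT3 most.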
